A study of Mus musculus with 4 samples.

Results

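Within the inflamed tibial muscle of Nse-Bmp4 mice, a small set of capture spots at day 3 after injury carried a tendon transcript signature, and these tendon-marker spots are described here. They were chosen from the day 3 section among the 3020 spots with 2000 or more UMIs (unique molecular identifiers, 1 per captured transcript). The score of a spot was the summed UMIs of Prg4, Tnmd, Fmod, Thbs4 and Comp over its total UMIs, and members were the spots at or above the 95th percentile. The rule gave 151 members and left 2869 other spots, out of 3029 spots deposited for this section and 10835 in the series.

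Nse-Bmp4 mice express a Bmp4 transgene from the neuron-specific enolase promoter and form ectopic bone after muscle injury. All sections came from C57BL/6 mice with this genotype, 6 to 8 weeks old, and no section without the transgene was examined. The day 0 section was from uninjured tibial muscle, and the day 1, day 3 and day 7 sections were from tibial muscle injured with cardiotoxin, a snake venom toxin that destroys myofibres. Each group pooled 3 tibial muscles per the labels, which do not say how the pool relates to a section. There was 1 section per day, so no p-value was computed, and the 95% intervals given below cover counting error only.

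Tendon joins muscle to bone through parallel collagen fibrils that are laid down and maintained by tenocytes. Small leucine-rich proteoglycans such as fibromodulin (Fmod) and thrombospondins such as Comp and Thbs4 bind collagen and are abundant in tendon. Tnmd (tenomodulin) is a membrane protein of mature tenocytes, and Prg4 (lubricin) is the boundary lubricant made by the lining cells of tendon sheaths and joints. Tendon and the connective tissue around it are known sites of ectopic bone formation.

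A spot covers several cells, so the members are regions rich in tendon transcripts and not tenocytes as such, and fewer cells of a type cannot be told apart from less RNA per cell. Members held a median of 18605 UMIs and 4458 genes per spot, against 16017 UMIs and 3740 genes in the other spots. Mitochondrial transcripts were 7.23% of member UMIs and 11.9% of the UMIs of other spots. Transcripts of 12 adult myofibre genes made up 5.06% of UMIs in members and 8.47% in other spots, so muscle RNA was present in both. This list ranged from 6944 to 205502 CPM over single members and from 2744 to 275910 CPM over single other spots. Their part in the differences below was not tested, except where values within 5 strata of spots by myofibre share are given.

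Each of the 5 markers was higher in members, which the rule fixed. Thbs4 reached 2837 CPM (UMIs per 1000000 UMIs) in members and 394 CPM in other spots. Fmod was at 1015 CPM against 46.9 CPM, and Prg4 was at 1008 CPM against 186 CPM. Comp was at 335 CPM against 16.7 CPM, and Tnmd was at 104 CPM against 5.23 CPM. Prg4 and Thbs4 were thus common outside the members too, whereas the members held 56.1% of the Fmod UMIs, 54.3% of the Comp UMIs and 54.0% of the Tnmd UMIs of the spots examined. Expected shares of spots with at least 1 UMI, after thinning each spot to 2000 UMIs, were 90.5% in members and 44.2% in other spots for Thbs4. For Tnmd they were 19.5% and 1.13%.

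**Figure D1:**
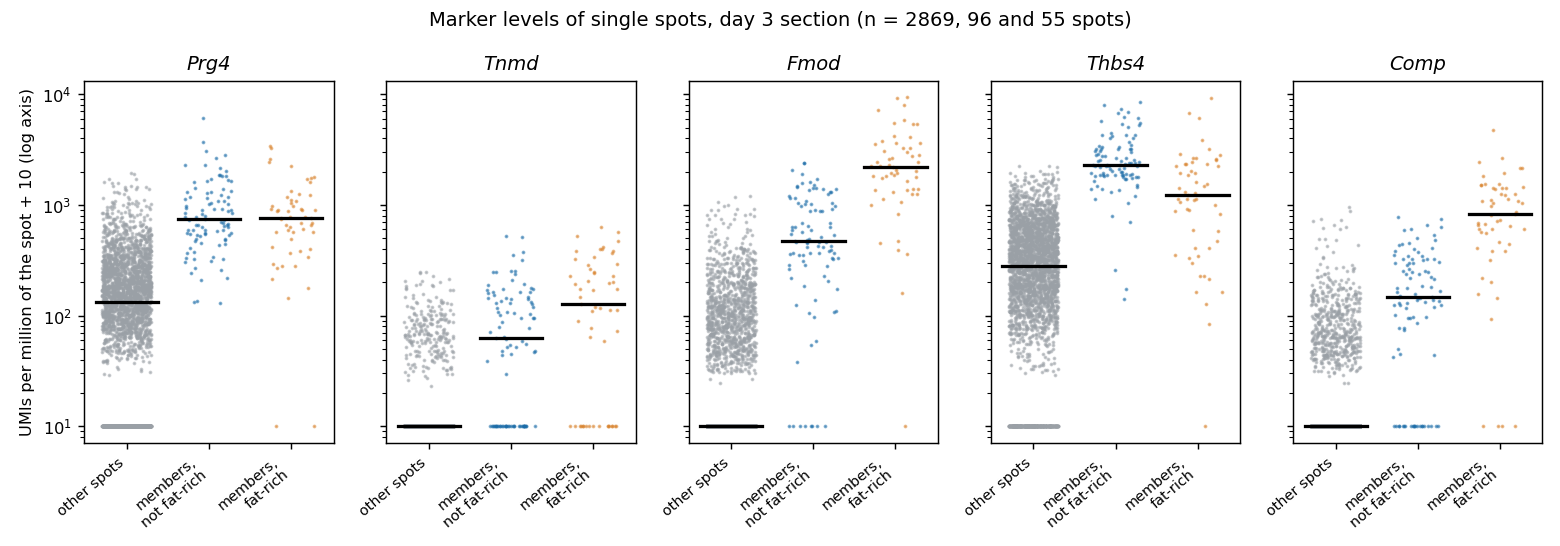
Level of the 5 markers in single spots of the day 3 section, as CPM of the spot plus 10 on a log axis. Each point is a spot, black lines are medians, and members are split by their content of adipocyte transcripts (96 not fat-rich, 55 fat-rich). The fat-rich members sit higher for Fmod and Comp and lower for Thbs4.

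The members ranged widely in score. The threshold was 2644 CPM of summed marker UMIs, the lowest members had 2658 and 2679 CPM, and the highest other spots had 2643 and 2635 CPM. The median was 4027 CPM in members, with a maximum of 17624 CPM, and 483 CPM in other spots. A member held at least 11 marker UMIs and a median of 72. Thbs4 supplied 53.5% of the marker UMIs of the members, Fmod 19.2%, Prg4 19.0%, Comp 6.33% and Tnmd 1.96%, so the rule was weighted toward Thbs4.

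The rule, which ranks spots by the sum of the markers, also favours spots that hold several of them. All 5 had at least 1 UMI in 93 of 151 members (61.6%) and in 85 of 2869 other spots (2.96%). Single spots varied, with a median of 36 and a maximum of 415 Thbs4 UMIs, a median of 14 and a maximum of 100 Fmod UMIs, and a median of 12 and a maximum of 140 Prg4 UMIs. Tnmd had no UMI in 52 members and Comp none in 25.

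To measure a marker that had no part in the choice, spots were also chosen by the other 4 markers. Tnmd was then 19.6-fold higher in the chosen spots (95% interval 16.6 to 23.1). Comp was 17.0-fold higher (15.6 to 18.7), Fmod 16.2-fold (15.3 to 17.0), Thbs4 6.23-fold (6.07 to 6.39) and Prg4 4.15-fold (3.97 to 4.33). Leaving out Thbs4 changed the members most, with 120 of 151 shared, whereas leaving out Tnmd kept 150. When the UMIs were split at random into 2 sets, with spots chosen on the first and measured on the second, 139 of 151 were shared and Fmod was 21.0-fold higher (19.5 to 22.7).

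The mix of markers varied among the members. Thbs4 had the most marker UMIs in 99 members, Fmod in 34, Prg4 in 10 and Comp in 5, with 3 ties and none led by Tnmd. Across the 151 members, levels of Fmod and Comp went together (Spearman's rho 0.67), as did those of Fmod and Tnmd (0.51) and of Tnmd and Comp (0.45). Thbs4 had little relation to Fmod (0.10) or Comp (-0.07), and the rho of Prg4 with the other markers lay between -0.06 and 0.12. Choosing spots on the sum of these markers lowers such coefficients. Over all 3020 spots rho was 0.38 for Thbs4 with Fmod, 0.33 for Thbs4 with Comp and 0.22 to 0.40 for Prg4 with the others, so the markers went together in the section as a whole. These spots come from 1 section and share its depth range, so the coefficients are descriptions.

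Adipocyte transcripts varied with the leading marker. Members were called fat-rich where the share of Adipoq, Cfd, Plin1, Retn and Cidec was at or above the 95th percentile of the other spots (259 CPM), a split made after the values were seen. There were 55 fat-rich members and 96 that were not, beside 144 fat-rich spots among the other 2869. Fat-rich spots made up 33 of the 34 Fmod-led members and 5 of the 5 Comp-led members, but 10 of the 99 Thbs4-led members and 4 of the 10 Prg4-led members. In the whole adipocyte list, 5 of 7 usable genes were at least 2-fold higher in members, its summed ratio was 2.204 (2.16 to 2.25), and single spots ranged from 206 to 37253 CPM in members and from 0 to 47568 CPM in other spots. The summed fat genes had a rho of 0.63 with Comp, 0.56 with Fmod and -0.37 with Thbs4 across the 151 members. Over all 3020 spots the same coefficients were 0.14, 0.15 and 0.04, so the inverse relation to Thbs4 was seen within the chosen spots and not across the section. Fat-rich members were also shallower, with a median of 8334 UMIs against 24716.5, and richer in adult myofibre transcripts, at 9.22% against 4.198%. The part of depth, fat and muscle in the split between Fmod and Thbs4 was not tested.

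**Figure D2:**
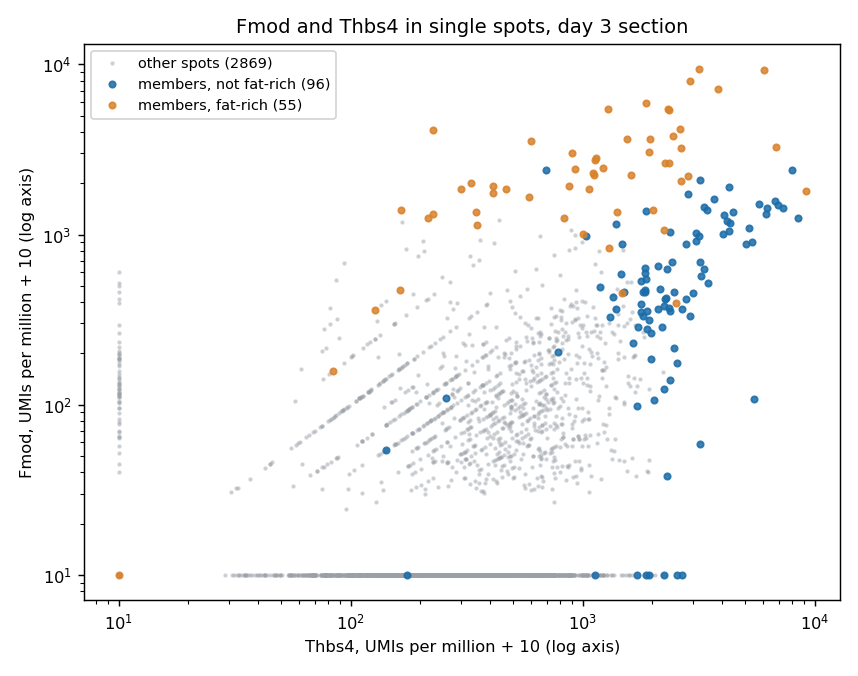
Fmod against Thbs4 in each spot of the day 3 section, as CPM of the spot plus 10, on log axes. Grey points are the 2869 other spots, blue points the 96 members that were not fat-rich and orange points the 55 fat-rich members, most of which lie at higher Fmod for a given Thbs4.

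Beyond the markers, 450 of 13138 genes with at least 50 UMIs (3.43%) were at least 2-fold higher in members and 233 (1.77%) at least 2-fold lower. Members were entered at no fewer than 3 UMIs (0.957 CPM), so genes with few UMIs could pass as higher but not as lower. The median gene was 0.16 higher on the log2 scale. Scaling by edgeR's TMM factors moved all values by -0.20 and turned this balance to 277 genes higher and 435 lower, so levels near the median have no settled direction. The members were chosen on the same spots, and the ratios that follow are descriptions.

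Rankings of genes by ratio, here and below, covered genes at 50 CPM or more on either side of the comparison. Among these, the largest ratio belonged to Chad (chondroadherin), a leucine-rich matrix protein of cartilage and tendon. Chad was at 101 CPM in members and 4.04 CPM in other spots, a ratio of 25.1 (21.1 to 30.01), and 102 members had at least 1 UMI. Angptl7, a secreted angiopoietin-like protein, followed at 83.3 CPM against 4.57 CPM, a ratio of 18.2 (15.2 to 21.8). Abi3bp, an extracellular matrix protein, was 10.0-fold higher (8.76 to 11.4), and Cpxm2, a secreted carboxypeptidase-like protein, was 6.82-fold higher (5.83 to 7.96). Mgp (matrix Gla protein), an inhibitor of calcification, was detected in all 151 members, at 1721 CPM against 329 CPM in other spots. Fbln1, a fibulin of elastic and basement membrane matrix, was 5.74-fold higher (4.93 to 6.67), and Prelp, a proteoglycan that anchors collagen to basement membrane, was 4.38-fold higher (4.05 to 4.73).

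Another 6 of the 20 genes with the largest ratios were high in the fat-rich members and not in the rest, which the split itself fixed for Cfd, Retn and Adipoq. Cfd (adipsin, a complement protease of adipocytes) was at 7246 CPM in fat-rich members, at 14.7 CPM in the other members and at 73.4 CPM in other spots. Hp (haptoglobin) was at 7488, 24.7 and 80.7 CPM in the same order, and the fatty acid desaturase Scd1 was at 4046, 38.2 and 64.0 CPM. Retn (resistin) was at 522 CPM in fat-rich members. None of the 2592836 UMIs of the other members was from Retn, where 3 UMIs would be 1.16 CPM. Adipoq and Wfdc21 were at 337 and 303 CPM in fat-rich members and at 1.54 and 1.16 CPM in the other members. All 6 were lower than in other spots once fat-rich members were left out, a comparison in which the other spots kept their own 144 fat-rich spots.

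The other 7 were highest in fat-rich members and were at or above other spots in the rest. Myoc (myocilin) was at 1293 CPM in fat-rich members, 73.3 CPM in the other members and 45.5 CPM in other spots. The complement component C4b was at 1014, 59.0 and 38.2 CPM, and the acute-phase gene Serpina3n was at 1108, 143 and 72.8 CPM in the same order. Fasn (fatty acid synthase), Lrg1, Retnla and Ccl21a had the same order, and Ccl21a shares its sequence with near-identical copies and is uncertain.

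The 7 matrix genes named first stayed above other spots in both sets of members. Of these, 5 were also highest in the fat-rich members. Fbln1 was at 172 CPM in fat-rich members and 53.6 CPM in the other members, Prelp was at 620 and 186 CPM, and Cpxm2 was at 135 and 61.3 CPM. Angptl7 and Abi3bp were not. Angptl7 was at 49.9 CPM in fat-rich members and 90.2 CPM in the other members, and Abi3bp was at 104 and 118 CPM. Mgp was at 2209 and 1620 CPM, and Chad was at 263 and 67.9 CPM. With fat-rich members left out, the 10 largest ratios belonged to Angptl7 (19.8), Chad (16.8), Abi3bp (10.2), Cpxm2 (5.65), Mgp (4.93), Fbln1 (4.16), Cxcl10 (3.54), Clec11a (3.42), Cpxm1 (3.24) and Prelp (3.12). Of 13113 genes, 3.02% were then at least 2-fold higher than in other spots and 2.18% at least 2-fold lower. Cxcl10, an interferon-induced chemokine, had a UMI in 23 of all 151 members and up to 95 in 1 spot.

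**Figure D3:**
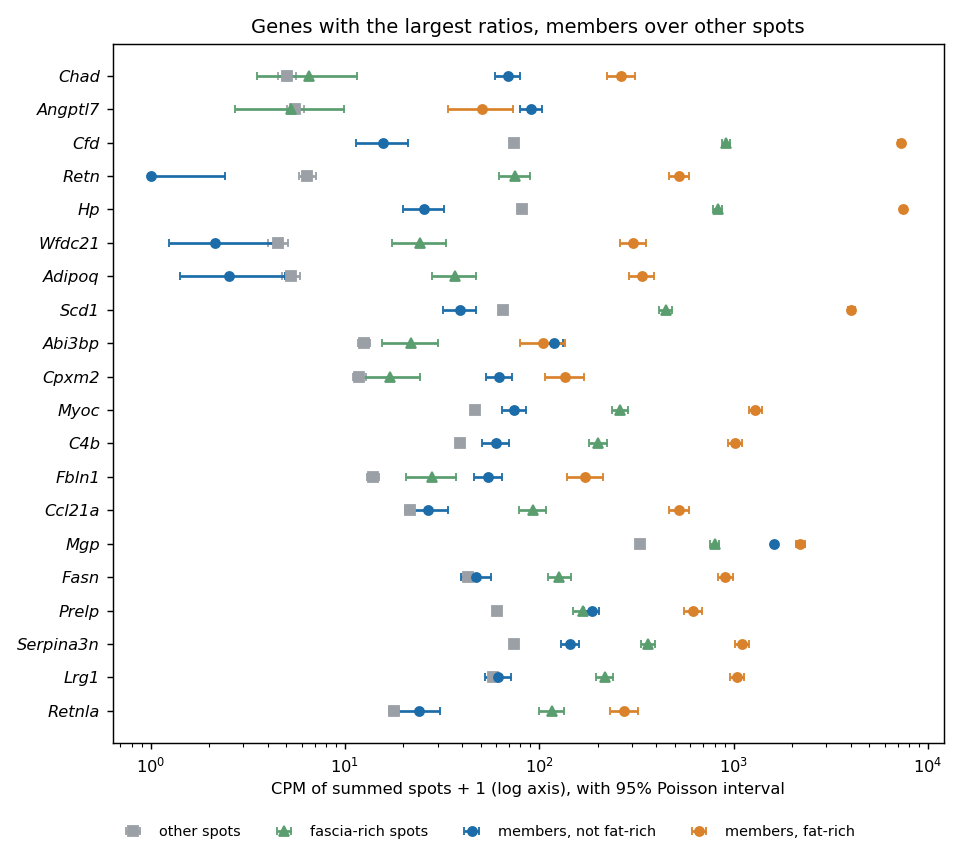
CPM plus 1, on a log axis with 95% Poisson intervals, of the 20 genes with the largest ratio of members over other spots, among genes at 50 CPM or more in either. Orange circles are the 55 fat-rich members, blue circles the 96 other members, green triangles the 121 fascia-rich spots outside the members and grey squares the 2869 other spots; Chad, Angptl7 and Abi3bp are high in both sets of members, whereas Cfd, Hp and Retn are high in the fat-rich set.

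The 10 smallest ratios all lay between 0.376 and 0.454. They belonged to Abra, Ampd1, 2310040G24Rik, Myh7, Mettl21c, Mylk4, Ppp1r27, Ankrd2, Trdn and Klhl31, of which Ampd1 is the muscle AMP deaminase, Myh7 the slow myosin heavy chain and Trdn (triadin) a protein of the calcium release unit. Ampd1 was at 99.6 CPM in members and 264 CPM in other spots. Mettl21c and Mylk4 were higher in members, by 0.37 and 0.31 on the log2 scale, when ratios were taken within the 5 strata by myofibre share. That measure raised most genes, with 1263 at least 2-fold higher and 16 lower. Member UMIs over those expected from other spots of the same stratum gave 327 and 244. By that second measure Mettl21c stayed lower in members and Mylk4 was barely higher, so their direction is not settled.

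Members led by Fmod and members led by Thbs4 were then compared directly, a pair chosen after the values were seen. Of 6976 genes, 6.01% were at least 2-fold higher in Fmod-led members and 15.3% at least 2-fold lower. The 5 largest ratios were those of Retn, Cd209f, Cfd, Hp and Plin1, with Cfd at 7959 CPM in Fmod-led and 103 CPM in Thbs4-led members. Among the smallest were those of Spp1, Gal, Hmgb2 and Chrna1. Spp1 (osteopontin), a matricellular protein that is abundant in macrophages of injured muscle, was at 63.5 CPM in Fmod-led and 1040 CPM in Thbs4-led members. Hmgb2, a chromatin protein of dividing cells, was at 10.0 and 122 CPM, and the acetylcholine receptor subunit Chrna1 was at 16.7 and 185 CPM. Fmod-led members held 299266 UMIs, with a median of 8344.5 per spot, against 2614710 UMIs and a median of 24035 in Thbs4-led members. The floor of 3 UMIs was therefore 10.0 CPM in Fmod-led members, where Hmgb2 lay, and Chrna1 there rested on few UMIs.

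Some other tenocyte genes were far higher in members, and others, among them Scx and Egr1, were not. Kera (keratocan) had 76 UMIs in members and 42 in all other spots, a ratio of 30.6 (20.7 to 45.7). Cilp2, a matrix protein related to cartilage intermediate layer protein, was 24.9-fold higher (19.2 to 32.5). Mkx (Mohawk), a tendon transcription factor, was 8.18-fold higher (4.10 to 15.6), on 15 UMIs in members. Scx (scleraxis), the transcription factor that marks tendon progenitors, was at 101 CPM in members and 78.6 CPM in other spots, a ratio of 1.28 (1.14 to 1.43). Scx was at 57.3 CPM in fat-rich and 110 CPM in the other members. The mechanosensitive factor Egr1 was at 13.7 CPM against 16.6 CPM. Without Tnmd, 3 of 7 usable genes of the tenocyte list were at least 2-fold higher and 0 lower, and the other 4 did not pass 2-fold. For list counts here and below, the shares over all genes were 3.43% higher and 1.77% lower. The list had a median of 0.36 on the log2 scale and summed to a ratio of 1.43 (1.36 to 1.51).

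Tendon collagens were higher as a group, with 5 of 12 genes at least 2-fold higher and 0 lower. Their median was 0.88 on the log2 scale, beside 0.16 for all genes, and the summed ratio was 1.71 (1.69 to 1.73). Col11a1, a fibril-nucleating collagen of cartilage and developing tendon, was at 33.2 CPM against 1.53 CPM, a ratio of 21.7 (16.1 to 29.4). Col11a2 was 6.21-fold higher (4.40 to 8.65) and Col12a1, a fibril-associated collagen, 2.13-fold (1.92 to 2.35). The main fibril collagens Col1a1 and Col1a2 were 2.01-fold (1.96 to 2.05) and 2.05-fold (2.01 to 2.10) higher. Col3a1, abundant in any healing tissue, was 1.38-fold higher (1.35 to 1.41). The list stood higher in the members that were not fat-rich, at 10502 CPM, than in the fat-rich members, at 6534 CPM, beside 5737 CPM in other spots. Within the 5 strata by myofibre share, the list was higher by 0.46 on the log2 scale, compared with 0.78 without strata.

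Small leucine-rich proteoglycans, which bind collagen fibrils and set their diameter, had the largest share of genes past 2-fold among the matrix lists. Without Fmod, 7 of 10 genes were at least 2-fold higher and 0 lower, and the summed ratio was 2.201 (2.15 to 2.25). Dcn (decorin) was at 856 CPM against 387 CPM and Bgn (biglycan) at 1285 CPM against 616 CPM. Omd was 4.39-fold higher (2.19 to 8.21) on 13 UMIs in members. Lum (lumican) and Aspn (asporin) were 1.43-fold (1.27 to 1.60) and 1.42-fold (1.31 to 1.55) higher. The list was above the median of other spots in 150 of 151 members.

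The remaining matrix lists were shifted less. Without Thbs4 and Comp, 2 of 13 thrombospondin and matricellular genes were at least 2-fold higher, Cilp (2.26-fold, 2.15 to 2.39) and Ccn5 (2.10-fold, 1.86 to 2.37). Spp1 was at 882 CPM in members and 974 CPM in other spots. Of 15 collagen cross-linking and processing genes, 1 was at least 2-fold higher, the procollagen protease enhancer Pcolce (2.16-fold, 2.05 to 2.28), while the cross-linking enzyme Lox was 1.75-fold higher (1.65 to 1.85). Among 11 elastic fibre genes, Fbln1, Mfap4 (3.16-fold, 2.75 to 3.60), Ltbp2 (2.58-fold, 2.33 to 2.85) and Fbn2 were at least 2-fold higher, whereas Eln (elastin) was at 31.0 CPM against 35.4 CPM.

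**Figure D4:**
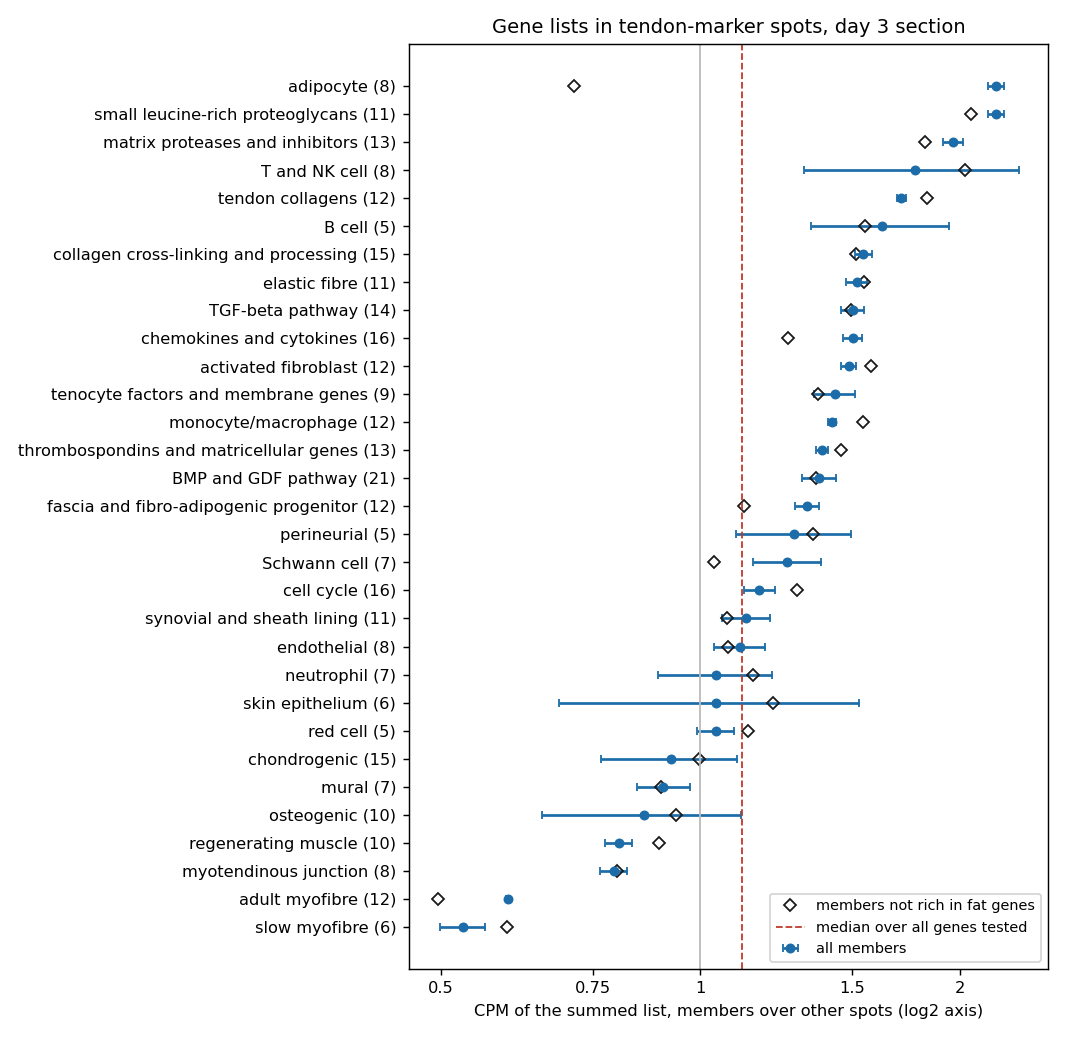
Ratio of CPM of each summed gene list, members over other spots, on a log2 axis, with the number of genes in brackets and the 5 markers left out. Blue points are all 151 members with 95% intervals, open diamonds the 96 members that were not fat-rich, the grey line a ratio of 1 and the dashed line the median over all genes; matrix lists lie to the right, muscle lists to the left, and the sheath lining list lies at the dashed line.

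Over all members, the sheath part of the label was not borne out beyond Prg4. Of 11 other genes of the synovial and sheath lining, 1 was at least 2-fold higher and 2 at least 2-fold lower, with a median of 0.11 on the log2 scale beside 0.16 for all genes. The summed ratio was 1.13 (1.06 to 1.204), and it fell below 1 with TMM scaling or size factors (both -0.02 on the log2 scale). Has1, a hyaluronan synthase, was 2.46-fold higher (1.998 to 3.01). Tspan15 and Htra4 had ratios of 0.471 (0.224 to 0.876) and 0.351 (0.151 to 0.699). Cd55 and Clic5, used to mark lining fibroblasts, were at 21.4 CPM against 29.0 CPM and at 37.7 CPM against 53.5 CPM. Tppp3, known from tendon sheath progenitors, was at 85.5 CPM against 73.0 CPM. Prg4 itself was at 975 CPM in fat-rich and 1014 CPM in the other members. The 10 members led by Prg4, a set under the minimum of 20 spots and looked at after the values were seen, are only described. In them the lining list without Prg4 was at 762 CPM (629 to 915), beside 285 CPM both in Thbs4-led members and in other spots. It was at 388 CPM in Fmod-led members and 405 CPM in the fascia-rich spots described below. These 10 spots differed in other lists too. Chemokines and cytokines were at 6012 CPM in them, 3068 CPM in Fmod-led members, 1407 CPM in Thbs4-led members and 1271 CPM in other spots. Has1 supplied much of the lining-list level of these 10 spots, which held 59 of its 110 member UMIs (391 CPM). Tspan15 and Htra4 had no UMI in their 150855 UMIs, where 3 UMIs would be 19.9 CPM, so low levels could be missed.

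Genes of the myotendinous junction, where myofibres anchor in tendon, were mixed. Col22a1, the collagen of this junction, was at 20.4 CPM in members and 1.34 CPM in other spots, a ratio of 15.2 (10.7 to 21.7). Tigd4 was 15.3-fold higher (9.51 to 24.4), on 37 UMIs in members. Ankrd2 and Xirp2, which are also stretch and injury genes of the whole fibre, had ratios of 0.439 (0.397 to 0.486) and 0.749 (0.704 to 0.795), and the list summed to 0.793 (0.765 to 0.822). Muscle lists were lower in members. The adult myofibre list had a ratio of 0.598 (0.595 to 0.601), with 1 of 12 genes, Myh1, at least 2-fold lower, and the slow myofibre list had a ratio of 0.530 (0.499 to 0.562), with Myh7, Tnnc1 and Myl3 at least 2-fold lower. In fat-rich members the adult myofibre list was higher than in other spots, by 0.12 on the log2 scale. The regenerating muscle list had a ratio of 0.804 (0.776 to 0.833), with Myod1 at 200 CPM against 198 CPM and embryonic Myh3 at 61.3 CPM against 110 CPM.

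Most genes of the chondrogenic and osteogenic lists were sparse in the members. Chad and Col11a1, which are also genes of cartilage matrix, are outside these lists and were high in members, as given above. Of 15 chondrogenic genes other than Comp, 3 had 50 or more UMIs, and Sox9, the master factor of cartilage, was at 16.3 CPM against 15.6 CPM (ratio 1.04, 0.771 to 1.39). Aggrecan (Acan) and Col2a1 had 1 UMI each in the 3133404 UMIs of members, and Col10a1 had 0, where 3 UMIs would be 0.957 CPM. Matn4, a matrilin, was 13.0-fold higher (7.19 to 23.1), on 23 UMIs in members. Of the osteogenic genes, Runx2 was at 12.4 CPM against 9.97 CPM, and Alpl had a ratio of 0.369 (0.176 to 0.685). Bmp4, the gene carried by the transgene, was at 6.06 CPM against 4.93 CPM (ratio 1.23, 0.729 to 1.96). Of 17 usable BMP and GDF genes, Bmp5 and the BMP antagonist Chrdl1 were at least 2-fold higher, by 3.56-fold (1.74 to 6.71) and 5.51-fold (4.04 to 7.43), and 0 were lower. The BMP target Id3 was 1.79-fold higher (1.67 to 1.91), and Id1 had a ratio of 1.13 (1.01 to 1.27). In the TGF-beta list, 1 of 14 genes was at least 2-fold higher, the co-receptor Tgfbr3 (2.01-fold, 1.68 to 2.39), and the summed ratio was 1.5035 (1.46 to 1.55). Of all genes tested, 3.43% were at least 2-fold higher, so 1 gene in a list of this size is near that share.

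Stromal lists of other kinds overlapped with the members. The activated fibroblast list had a ratio of 1.49 (1.46 to 1.52), with the protease inhibitor Timp1 at 691 CPM against 296 CPM and smooth muscle actin (Acta2) at 129 CPM against 179 CPM. In the fascia and fibro-adipogenic progenitor list, 2 of 12 genes, Pi16 and Gdf10, were at least 2-fold higher. Pi16, a marker of fascia fibroblasts, was at 770 CPM in fat-rich members, 54.0 CPM in the other members and 58.7 CPM in other spots.

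To set the members beside other connective tissue, they were compared with fascia-rich spots. These were the 151 spots highest in the fascia list, of which 30 were members and 121 served as the comparator. With members taken out, every comparator spot lay below the marker threshold, which favours higher values in members for genes that go with the markers. The comparison therefore cannot decide whether the signature is one of any connective tissue. Of 8745 genes, 122 (1.4%) were at least 2-fold higher in members than in these spots and 140 (1.6%) at least 2-fold lower. Angptl7 was 19.3-fold (9.26 to 48.6), Chad 18.3-fold (9.53 to 40.5), Kera 13.1-fold (4.33 to 65.1) and Abi3bp 5.51-fold (3.87 to 8.08) higher in members. Scx was 2.44-fold higher (1.87 to 3.22). The tendon collagen list differed little, with a ratio of 1.12 (1.10 to 1.14), and Col3a1 and Fbn1 were lower in members, at 0.774 and 0.611. Without the markers, small leucine-rich proteoglycans had a ratio of 1.203, thrombospondin and matricellular genes 1.15 and tenocyte genes 1.48. Matrix proteases and inhibitors were at 1.18 and the TGF-beta list at 1.04. Cross-linking genes were at 0.961, activated fibroblast genes at 0.965, elastic fibre genes at 0.795 and sheath lining genes at 0.794. All of these lists but the tenocyte list were also higher in fascia-rich spots than in other spots. The fat genes differed little, with Cfd at 1262 CPM in members and 915 CPM in fascia-rich spots.

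Matrix proteases and their inhibitors were higher in members, with 5 of 13 genes at least 2-fold higher and a summed ratio of 1.96 (1.91 to 2.02). The collagenase Mmp13 was 8.11-fold higher (6.18 to 10.6), Mmp3 (stromelysin) 3.36-fold (2.90 to 3.88) and the gelatinase Mmp2 2.96-fold (2.77 to 3.16). Mmp3 was at 170 CPM in fat-rich and 51.7 CPM in the other members, whereas Mmp13 was at 14.8 and 29.3 CPM. Of 15 usable chemokines and cytokines, the acute-phase gene Saa3 was at least 2-fold higher (4.99-fold, 4.04 to 6.11) and the eosinophil chemokine Ccl11 at least 2-fold lower (0.467, 0.260 to 0.777). These counts stand beside 3.43% of all genes higher and 1.77% lower. Il1b was at 37.98 CPM against 20.3 CPM.

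Inflammatory cell transcripts were present in the members. The monocyte/macrophage list was at 11048 CPM in members and 7778 CPM in other spots, a ratio of 1.42 (1.41 to 1.44), with 0 of 12 genes past 2-fold in either direction. Within the 5 strata by myofibre share, the difference was 0.18 on the log2 scale, compared with 0.51 without strata. It was at 11995 CPM in members that were not fat-rich and 6506 CPM in fat-rich members, the latter below the other spots. Trem2 followed this pattern, at 98.05 CPM in fat-rich and 310 CPM in the other members, while Mrc1, a marker of resident and repair macrophages, was at 405 and 195 CPM. Neutrophil genes had a ratio of 1.04 (0.894 to 1.21). The T and NK cell list rested on 5 usable genes, with 2 at least 2-fold higher and a summed level of 17.6 CPM against 9.89 CPM. Of the cell cycle genes, 0 of 16 passed 2-fold, and the list was at 379 CPM in fat-rich and 864 CPM in the other members, beside 666 CPM in other spots. Endothelial genes had a ratio of 1.11 (1.04 to 1.19), below 1 with TMM scaling, and the mural list had a ratio of 0.906 (0.844 to 0.971). The B cell and perineurial lists, with 2 and 3 usable genes, had ratios of 1.62 (1.35 to 1.94) and 1.29 (1.10 to 1.49), and the skin epithelium and red cell lists had a ratio of 1.04 each. The Schwann cell list was at 162 CPM in members and 128 CPM in other spots, a ratio of 1.26 (1.15 to 1.38). It was at 300 CPM in fat-rich members and 133 CPM in the other members. Within this list, Sox10 had no UMI in the members, where 3 UMIs would be 0.957 CPM.

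When the spots of the section were grouped by their transcripts with the markers left out, the members did not form a region of their own. Of 10 regions, 8 held at least 1 member. A region of 125 spots led by Cfd, Wfdc21 and Hp held 52 members (34.4%), which were 41.6% of its spots. A deeper region of 551 spots led by Mest, Lpcat2 and Cxcr4, with macrophage genes at 14366 CPM, held 46 members (30.5%), which were 8.35% of its spots. The slow-fibre genes Myh7, Sln and Tnnc1 led a region of 432 spots that held 27 members, and Angptl7 and Mettl21c led a region of 159 spots that held 15. A finer grouping into 12 regions again put 52 members in a region led by Cfd.

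The same rule was applied to the sections of the other days, where day and section cannot be told apart. At the day 3 threshold, 10 of 2090 spots of the uninjured section qualified (0.478%, exact interval 0.230 to 0.878). In the day 1 section 83 of 2154 spots did (3.85%, 3.08 to 4.75), and in the day 7 section 312 of 2948 (10.6%, 9.50 to 11.8), beside 5% by construction in the day 3 section. Comp is a cartilage gene too, so spots past the threshold in the day 7 section can be cartilage as well as tendon. Depth differed as well, with medians of 21029, 6322, 16087 and 12119.5 UMIs per spot at days 0, 1, 3 and 7, and its part in these shares was not tested. Spot barcodes are array positions, and 73.0% to 86.5% of those of the smaller section of each pair recurred in the other section. The markers did not move together. Over the whole section, Prg4 was at 1.14, 107, 232 and 31.5 CPM in the sections of days 0, 1, 3 and 7. Thbs4 was at 73.1, 355, 530 and 315 CPM in the same order. Comp was at 1.00, 9.35, 34.4 and 383 CPM, Fmod at 16.1, 89.3, 101 and 327 CPM, and Tnmd at 7.18, 5.35, 10.7 and 27.7 CPM. Prg4 and Thbs4 were thus highest in the day 3 section, and Comp, Fmod and Tnmd in the day 7 section.

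**Figure D5:**
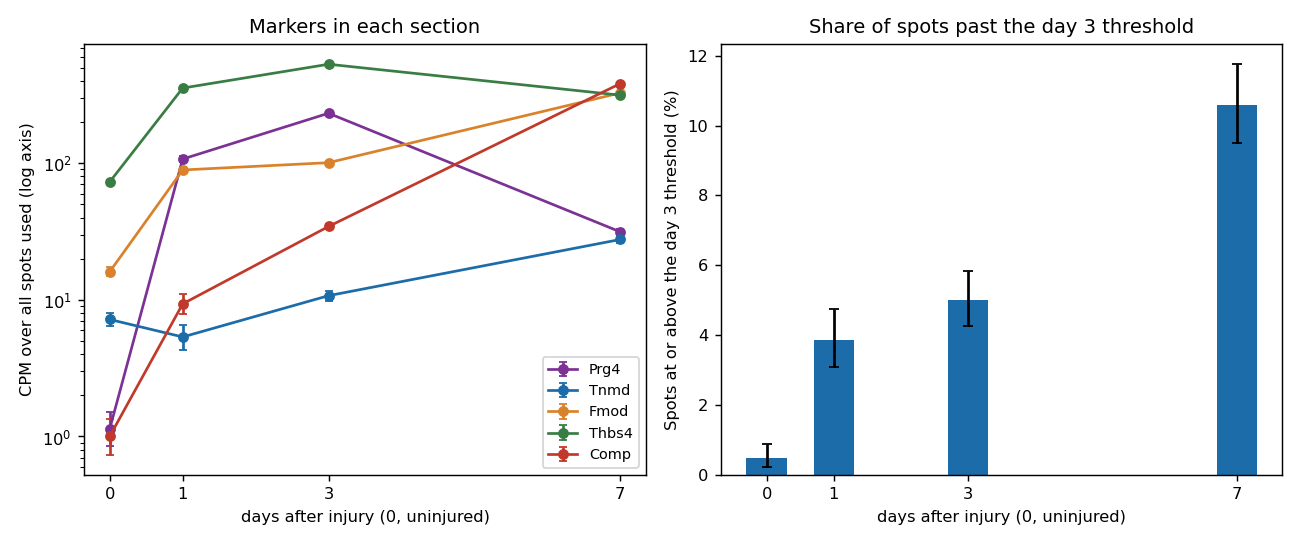
Left, CPM of each marker over all spots with 2000 or more UMIs in each section, on a log axis with 95% Poisson intervals. Right, percent of spots at or above the day 3 threshold of the score, with exact 95% binomial intervals; the share was lowest in the uninjured section (0.478%) and highest in the day 7 section (10.6%), with 1 section per day.

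With each section's own 95th percentile, the rule gave 105, 108 and 148 spots in the day 0, day 1 and day 7 sections. The thresholds differed widely, at 280, 1796 and 3825 CPM of summed markers. Several genes that were high in the day 3 members were high in these spots too. In the order of day 0, day 1 and day 7, Chad had ratios of 54.6, 16.4 and 12.04. Angptl7 had ratios of 13.2, 30.9 and 13.3, Kera 46.1, 43.0 and 12.6, and Cpxm2 5.32, 15.8 and 3.52. Mgp had ratios of 3.27, 15.4 and 2.98. Scx, which differed little at day 3, had ratios of 3.58, 1.26 and 2.79.

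The adipocyte genes Cfd and Retn did not follow. Cfd had ratios of 0.948, 0.974 and 0.2001 in the day 0, day 1 and day 7 sections, and Retn had ratios of 0.498, 0.457 and 0.190. The whole adipocyte list had ratios of 0.890 (0.864 to 0.916), 1.33 (1.28 to 1.38) and 0.393 (0.374 to 0.412) in the same order, so it was higher in the day 1 section. Of the 20 genes with the largest ratios at day 3, 7 were at least 2-fold higher in the uninjured section, 10 in the day 1 section and 8 in the day 7 section, beside 3.1%, 4.05% and 15.7% of all genes tested. At least 2-fold lower were 1, 2 and 7 of the 20, beside 0.967%, 2.81% and 4.51% of all genes. Comp is itself a gene of the chondrogenic list, so the rule can choose cartilage at day 7, and tendon and cartilage were not told apart there. At day 7 the spots chosen by the rule held 2464 CPM of Comp and 1220 CPM of Thbs4. The chondrogenic list without Comp was at 13115 CPM in them, a ratio of 9.58 (9.44 to 9.73). In the day 3 members it was at 41.2 CPM, a ratio of 0.924 (0.768 to 1.10). The osteogenic list was at 1943 CPM and a ratio of 7.54 (7.27 to 7.82) at day 7. The tendon collagen list had ratios of 1.61, 4.18 and 3.44 at days 0, 1 and 7.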

How the data were processed

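Spatial RNA was captured from 10 µm fresh frozen sections on Visium slides. The deposited values were UMI counts per gene and spot, made by the authors with Space Ranger (1.2.0 in the file header, other versions in the labels and methods) on mm10. Each table held 32285 features. Positions and images were not used here, no doublet caller was run because a spot covers several cells, and repeat symbols were matched by gene ID.

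For each set of spots, UMIs were added up and scaled to CPM. Ratios had exact conditional binomial intervals, levels exact Poisson intervals and shares Clopper-Pearson intervals, all at 95%. Counts under 3 UMIs were entered at 3 on the log2 scale. The members, the 31 gene lists (326 genes, all found) and the tests were chosen with earlier results of these data known. Named genes were those of the lists and, at 50 CPM or more in members or other spots, the 20 largest and 10 smallest ratios at day 3. No comparison across genes was made for Prg4-led members (10 spots), which fell under the minimum of 20 spots; their lining genes were described after values were seen. The 5 largest and 5 smallest ratios between Fmod-led and Thbs4-led members, and the 10 largest without fat-rich members, were added after values were seen. Some items that these rules name are not reported here.

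Regions were Leiden clusters (2000 variable genes, 30 components, 15 neighbours, resolution 0.5, seed 1). Alternatives were other percentiles, depth minimums, scalings, scores, gene minimums and spot weights, a random split of the UMIs into 2 sets, and ratios within 5 strata by myofibre share. The fat split and the expected counts by stratum were chosen after seeing the data. On simulated data for the members, 106 of 106 genes made 4-fold higher and 86 of 94 made 4-fold lower passed 2-fold, as did 156 of 12865 unchanged genes. The simulation held counting error only and no variation between spots, so it does not give the rate of such passes among real spots. Clustering used Scanpy 1.11.5 with leidenalg 0.10.2, scaling used edgeR 4.0.16 (TMM factors) and DESeq2 1.42.0 (size factors) in R 4.3.3, and all else used SciPy 1.17.1, NumPy 2.4.6 and pandas 2.3.3 in Python 3.11.15.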

Additional observations from a re-analysis of the deposited data

How the results depend on the processing

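No paired analysis was possible because each day had 1 section, which also left no section to leave out. The count of genes at least 2-fold higher (450) and lower (233) was 228 and 141 at the 90th percentile of the score, 1126 and 379 at the 98th, 277 and 435 with TMM factors, 278 and 435 with size factors, 1263 and 16 within 5 strata of spots by myofibre share, 2434 and 655 in fat-rich members, and 210 and 138 for genes with at least 200 UMIs. The count higher was 730 when members were chosen on 1 of 2 random sets of the UMIs, 842 with the mean of the spots' own CPM and 4050 with no minimum. Fewer UMIs per gene in the smaller sets, strata and unfiltered genes put more genes at the floor of 3 UMIs.

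The following are log2 ratios. Tendon collagens (0.78) stayed higher under every setting run: 0.69 and 0.86 at the 90th and 98th percentiles, 0.76 with spots of 4000 or more UMIs, 0.58 with TMM and size factors, 0.64 with the total without muscle, mitochondrial, haemoglobin and marker genes, 0.66 without Prg4 in the score, 0.71 with the UMIs split into 2 sets, 0.46 within myofibre strata, 0.42 over the UMIs expected by stratum, 0.92 with mean CPM, and 0.87 and 0.19 in members not rich and rich in fat genes. Monocyte/macrophage genes (0.51) were at 0.22, 0.59, 0.49, 0.31, 0.31, 0.37, 0.47, 0.48, 0.18 and 0.14 under the same settings up to expected UMIs, and at 0.63 and -0.26 in members not rich and rich in fat genes. Adult myofibre genes (-0.74) were at -0.42, -0.93, -0.73, -0.94, -0.94, -0.87, -0.68 and -0.69 up to the split UMIs, -0.71 with mean CPM, and -1.01 and 0.12 in members not rich and rich in fat genes. Sheath lining genes (0.18) were at -0.0244 with TMM and -0.0226 with size factors, 0.0431 with the reduced total, 0.0664 without Prg4 in the score and 0.48 in fat-rich members. Chondrogenic genes (-0.11) were at 0.17 within strata, -0.41 with mean CPM and -0.78 in fat-rich members.

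Directions turned for cell cycle genes at the 90th percentile (-0.00707), within strata (-0.0924), over expected UMIs (-0.14) and in fat-rich members (-0.81), for T and NK cell (-0.83) and perineurial genes (-0.0336) in fat-rich members, and for endothelial genes with TMM (-0.0475) and size factors (-0.0458). Without fat-rich members they turned for the adipocyte list (-0.49), Cfd (-2.32), Retn (-2.22), Hp (-1.71), Wfdc21 (-1.61), Adipoq (-1.47) and Scd1 (-0.75). The split fixed this for Cfd, Retn and Adipoq and favoured it for the list that holds them. All of these are counted among the reversals given below. Mettl21c (0.37) and Mylk4 (0.31) turned within strata, and Mylk4 also over expected UMIs (0.0208) and in fat-rich members (0.0114). Other causes were not tested. At the day 3 threshold, the 105 spots of day 0 became 10 and the 148 of day 7 became 312. Over the 26 lists other than those of the paragraph above, 163 of 364 alternative values stayed within the counting interval, 192 moved and 9 reversed. The lists of that paragraph are not in this count, and sheath lining, monocyte/macrophage and adult myofibre genes also reversed there. Over 30 named genes 213 of 420 stayed, 197 moved and 10 reversed. Depth limits the chondrogenic and osteogenic lists, in which 3 genes each had 50 UMIs.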
